A study of Homo sapiens with 48 samples.

Results

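The uninduced shEIF2B1 line of SW480 cells was compared with the uninduced shCTRL line, before any knockdown was switched on. SW480 is an established human colorectal cancer (CRC) cell line. Each line carried a lentiviral LT3-GEPIR cassette, in which a doxycycline-responsive promoter drives the shRNA, and was a pool of transduced, selected cells rather than a clone. The shCTRL line expressed a non-targeting shRNA on induction and the shEIF2B1 line an shRNA against EIF2B1. Uninduced (-DOX) cells received DMSO, and induced (+DOX) cells received 1 µg/ml doxycycline for 5 days. Ribosome-protected fragments (RPFs) and total cytoplasmic RNA were sequenced from the same lysates, so that 4 replicates of each of the 2 lines gave 8 lysates and 16 libraries, of 48 in the series. The members were the libraries of these 2 uninduced groups, paired by replicate number. For comparison, values are also given from the 16 induced libraries of these lines and from the shEIF2B4 line (8 libraries without DOX). The shEIF2B4 line was made from SW480 cells in the same way and carried an shRNA against EIF2B4. Replicates came from separate weeks, and replicate 3 was joined from 2 sequencing runs. The comparison asks how far the 2 lines already differed at the baseline from which each knockdown response starts.

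eIF2B is the guanine nucleotide exchange factor of eIF2, the factor that carries the initiator methionyl-tRNA to the ribosome. EIF2B1 encodes its regulatory α subunit, through which the complex senses phosphorylated eIF2α, and EIF2B2 to EIF2B5 encode the β, γ, δ and ε subunits. When eIF2α is phosphorylated, eIF2B is inhibited, bulk initiation falls and mRNAs with suitable upstream open reading frames, above all ATF4, are translated more. This is the integrated stress response (ISR). Ribosome profiling reads the positions of ribosomes on coding sequences (CDS), so the RPF value of a gene reflects both how much of its mRNA is present and how densely it is occupied. The ratio of RPFs to total RNA is called translational efficiency (TE).

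All values are regularized log2 values (rlog), a log2 scale of normalized read counts on which differences of poorly covered genes are shrunk, so a difference given here can be smaller than the true one. The tables held 11947 genes in total RNA and 11145 in RPFs, with 10836 in both. Read totals were not part of the tables, so the depth of each library is unknown and no counting error can be given. Library medians lay between 7.89 and 7.92 in total RNA and between 6.98 and 7.12 in RPFs. In bulk libraries, fewer cells with an mRNA and less of it per cell cannot be told apart. Of 22 colon epithelial markers, 11 were measured in RPFs, among them EPCAM, CDX2, CDH1, KRT8 and KRT18, and KRT18 stood at 13.38 to 13.63 in the 8 uninduced total RNA libraries. Of 15 markers of blood, stromal and endothelial cells, 1 (CD68, a lysosomal glycoprotein) was measured.

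RPF differences between the uninduced lines followed the base composition of the coding sequences, so short stretches of 8 of them are shown here before the values. Each stretch is 30 bases, or 10 codons, of the CDS in the GRCh38 reference (GENCODE v29 transcripts), printed 5′ to 3′ on the coding strand. Capitals mark every G or C at position 3 of a codon, and each stretch was chosen so that its share of such codons equals, to the nearest 1 in 10, that of the whole CDS. SSB, SUMO2 and HSPH1 had more RPFs in uninduced shEIF2B1 cells, IGFBP7, TNFSF9, CLEC11A and CAVIN3 had fewer, and EIF2B1 is the target of the shRNA.
SSB: tttctaaaGgaacaGataaaactGgatgaa
HSPH1: cattgGgtagaatctttCcaGaaGgctcga
SUMO2: aaGactgaGaaCaaCgatcatattaatttG
EIF2B1: cctgaCatGgcCtcagcagtGgctgcCatC
IGFBP7: cgCaaGagGcgGaaGggtaaagcCggGgca
TNFSF9: ccCgaagcCccGtgGcctccCgcGccCcgC
CAVIN3: atGctGgaGactctGcgGgaGcgGcaGgga
CLEC11A: gtGgtCccCcaGctCttGggCtttggCcat
The stretches lie inside coding exons. SSB is shown at chr2:169805510-169805539 (plus strand, codons 35 to 44) and HSPH1 at chr13:31162029-31162058 (minus strand, codons 13 to 22). SUMO2 is shown at chr17:75181150-75181179 (minus strand, codons 11 to 20) and EIF2B1 at chr12:123632379-123632408 (minus strand, codons 18 to 27). IGFBP7 is shown at chr4:57110052-57110081 (minus strand, codons 91 to 100) and TNFSF9 at chr19:6531067-6531096 (plus strand, codons 11 to 20). CAVIN3 is shown at chr11:6320345-6320374 (minus strand, codons 35 to 44) and CLEC11A at chr19:50723556-50723585 (plus strand, codons 11 to 20). The GC content of the whole CDS was 36.8% in SSB, 40.9% in HSPH1 and 44.6% in SUMO2. It was 48.9% in EIF2B1, 64.3% in IGFBP7, 68.9% in TNFSF9, 70.8% in CAVIN3 and 69.9% in CLEC11A.

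EIF2B1 (ENSG00000111361.13, chr12:123620406-123633766 on the minus strand of GRCh38) was lower in the shEIF2B1 line before induction. In RPFs it measured 8.79, 8.81, 8.91 and 8.68 in shCTRL -DOX replicates 1 to 4 and 8.35, 8.26, 8.46 and 8.34 in shEIF2B1 -DOX. Every shEIF2B1 library was below every shCTRL library. The means were 8.80 ± 0.09 and 8.35 ± 0.08 (SD, n = 4 each), a difference of -0.45 (SE 0.0936, adjusted p = 0.00188, limma, Benjamini-Hochberg over all genes). Calls throughout are at an adjusted p under 0.1, and the fit used the 16 libraries of both lines with and without DOX and the replicate number as a block. The exact permutation test of 4 against 4 libraries, like all such tests here in both directions, gave p = 0.0286, the smallest it allows.

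In total RNA EIF2B1 measured 8.43, 8.52, 8.59 and 8.66 in shCTRL -DOX and 8.19, 8.21, 8.25 and 8.38 in shEIF2B1 -DOX. Here too the groups did not overlap, and each week showed the lower value in shEIF2B1. The means of 8.55 ± 0.10 and 8.26 ± 0.09 (SD, n = 4 each) differed by -0.29 (SE 0.108, limma adjusted p = 0.996), which did not pass the test over all genes, while the exact permutation test on this gene alone gave p = 0.0286. In a fit of only the 8 uninduced libraries the same difference passed (limma adjusted p = 0.0289). The log2 TE of EIF2B1 differed by -0.16 (SE 0.104, limma adjusted p = 0.274).

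Induction widened the gap. With DOX, the line difference was -0.96 in total RNA (limma adjusted p = 9.38e-06) and -0.97 in RPFs (limma adjusted p = 5.3e-07), and the change in the line difference was itself past the threshold, at -0.67 in total RNA (limma adjusted p = 0.0263) and -0.53 in RPFs (limma adjusted p = 0.0109). The uninduced difference was thus present in addition to the response to DOX. The uninduced shEIF2B4 line, which carries an shRNA against another subunit, held EIF2B1 at 8.67, 8.62, 8.80 and 8.68 in total RNA and 8.87, 8.62, 8.66 and 8.76 in RPFs. Values of that line sat lower as a whole, by a median of -0.04 in total RNA and -0.13 in RPFs. With each library set to the same median, EIF2B1 in uninduced shEIF2B4 cells stood 0.19 above shCTRL in total RNA and 0.02 above it in RPFs, beside -0.29 and -0.51 in uninduced shEIF2B1 cells.

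**Figure D1:**
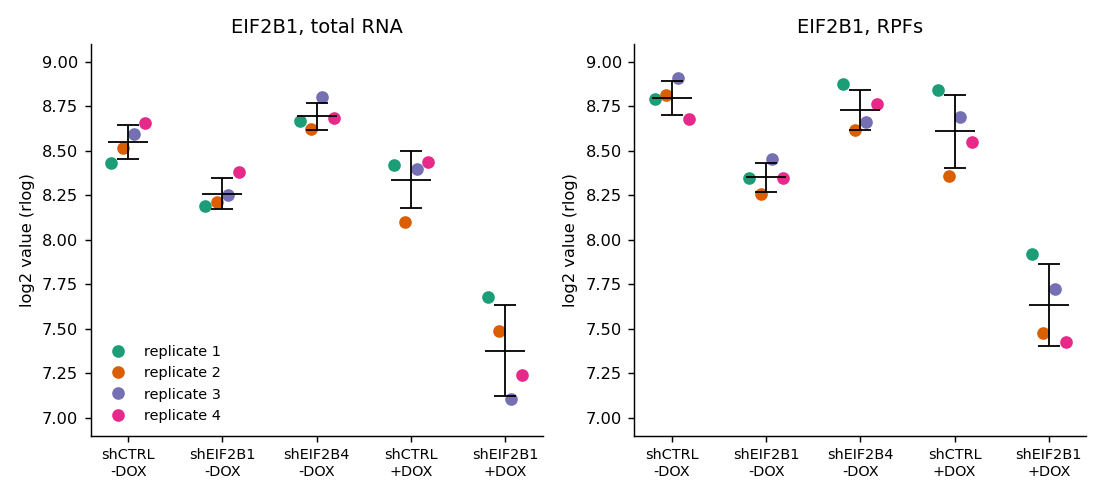
EIF2B1 in each library (log2 rlog value, y axis; the axis does not start at 0) by line and DOX, in total RNA (left) and RPFs (right). Points are replicates coloured by number, and bars are the mean ± SD of 4 replicates. The uninduced shEIF2B1 libraries lie below all uninduced shCTRL libraries in both panels, with means of 8.26 against 8.55 and 8.35 against 8.80.

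The other subunits did not share the decrease. In RPFs EIF2B3, the γ subunit, was 0.29 higher (SE 0.119, limma adjusted p = 0.062) in 4 of 4 weeks, but only 0.06 higher once the trend with CDS GC content described below was removed, and the call was lost without replicate 1 (0.25), 3 (0.29) or 4 (0.33). EIF2B2 differed by -0.09 (limma adjusted p = 0.459), EIF2B4 by 0.07 (limma adjusted p = 0.717) and EIF2B5 by 0.09 (limma adjusted p = 0.471) in RPFs. In total RNA these 4 subunits were 0.08 to 0.16 higher, and none passed the test. Of the 5 subunits, 1 rose and 1 fell in RPFs, where 25.3% of all genes were called higher and 20.6% lower. The 9 measured genes next to EIF2B1 on 12q24.31 were compared as well: in RPFs TMED2, a cargo receptor of the early secretory pathway, was 0.28 higher (SE 0.0928, limma adjusted p = 0.0259), none was called lower, and their median difference was 0.02, against -0.01 in total RNA.

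Total RNA of the uninduced lines was otherwise close in the fit of 16 libraries. The test called 1 of 11947 genes (0.00837%) higher in shEIF2B1 and 0 lower, with 542 genes (4.54%) at an unadjusted p under 0.05. The called gene was DKK4, a secreted WNT antagonist. DKK4 measured 10.62, 10.54, 9.87 and 10.05 in shCTRL -DOX and 10.93, 11.01, 10.80 and 10.68 in shEIF2B1 -DOX, groups that did not overlap. The difference was 0.58 (SE 0.0916, limma adjusted p = 0.0558), and leaving out replicate 2, 3 or 4 ended the call. In RPFs DKK4 was 0.46 higher (SE 0.123, limma adjusted p = 0.00796), and it was the only gene called the same way in both measures. With DOX the line difference was 0.16 (limma adjusted p = 0.281). The uninduced shEIF2B4 line, set against the same shCTRL libraries after median centring, was 0.58 higher in total RNA and 0.49 in RPFs, beside 0.59 and 0.40 for shEIF2B1.

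A fit of only the 8 uninduced libraries, whose spread was estimated without the induced libraries, called 71 genes higher (0.594%) and 96 lower (0.804%) in total RNA, together 167 (1.4%). In that fit 1569 genes (13.1%) were at an unadjusted limma p under 0.05. The induced libraries are separate from those of that fit, although they share its weeks, and the sign was compared there. Of the 71 genes that were higher, 48 (67.6%) were also higher in shEIF2B1 +DOX on average and 23 (32.4%) in each of the 4 weeks, beside 49.6% and 15.3% of all genes that were higher. Of the 96 that were lower, 57 (59.4%) were lower in induced cells on average and 21 (21.9%) in each week, beside 54.5% and 13.9% of all genes that were lower. RPFs of the same lysates had the same sign for 57 of the 60 higher genes measured there (95%), beside 65.1% of all genes that were higher. They had it for 63 of the 85 lower ones (74.1%), beside 63.0% of all genes that were lower.

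The genes described next were singled out after their values were seen, for differences in total RNA that passed the fit of the 8 uninduced libraries and for what they did in induced cells. SLC9A2, a sodium-proton exchanger of epithelia, measured 6.18, 6.06, 5.84 and 5.89 in shCTRL -DOX and 6.41, 6.45, 6.45 and 6.53 in shEIF2B1 -DOX. The groups did not overlap, as in 1.62% of all genes on the higher side and 1.74% on the lower side. The difference of 0.47 (limma adjusted p = 0.135, 0.0164 in the 8 libraries) was followed by one of 0.50 in induced cells (limma adjusted p = 0.000935). CEP112, which encodes a centrosomal protein, measured 7.10, 7.10, 7.30 and 7.34 in shCTRL and 7.47, 7.65, 7.91 and 7.76 in shEIF2B1, and was 0.49 higher without DOX and 0.61 higher with it. GRK3, a G protein-coupled receptor kinase, was 0.38 higher without DOX (limma adjusted p = 0.0248 in the 8 libraries) and 0.80 with it. KAT6A, a histone acetyltransferase, was 0.39 higher (limma adjusted p = 0.0113 in the 8 libraries) and 0.18 higher with DOX (limma adjusted p = 0.157). In total RNA the change in the line difference with DOX did not pass for GRK3 (0.42, limma adjusted p = 0.104) or KAT6A (-0.21, limma adjusted p = 0.382). ABCB1, the multidrug efflux transporter, was 0.39 higher in total RNA (limma adjusted p = 0.0528 in the 8 libraries) and 0.58 in RPFs (limma adjusted p = 0.000673). In uninduced shEIF2B4 cells, against the same shCTRL libraries and after median centring, total RNA was 0.38 higher for SLC9A2 (0.47 in shEIF2B1), 0.44 for CEP112 (0.49), 0.43 for GRK3 (0.39) and 0.36 for KAT6A (0.39). ABCB1 stood at -0.05 there, beside 0.39 in shEIF2B1.

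On the lower side IGFBP7, a secreted insulin-like growth factor binding protein, measured 11.70, 11.64, 11.60 and 11.81 in shCTRL -DOX and 11.31, 11.10, 11.42 and 11.44 in shEIF2B1 -DOX. All shEIF2B1 libraries were lower, by 0.37 on average (difference -0.37, limma adjusted p = 0.658, 0.0107 in the 8 libraries). With DOX the difference was -0.70 (limma adjusted p = 0.000123), and the change in it did not pass (-0.33, limma adjusted p = 0.25). Its RPFs measured 12.30, 11.85, 12.37 and 11.83 in shCTRL and 11.56, 10.81, 11.58 and 11.36 in shEIF2B1, a difference of -0.76 (SE 0.115, limma adjusted p = 0.000437) that again left no overlap. ESM1, a secreted proteoglycan, differed by -0.37 in total RNA and -0.51 in RPFs, and S100A2, a calcium-binding protein, by -0.35 in total RNA. PSG1, a pregnancy-specific glycoprotein, differed by -0.58 and the metallothioneins MT1X and MT2A, which bind zinc and copper, by -0.45 and -0.38. MT2A measured 10.68, 10.95, 12.19 and 10.94 in shCTRL -DOX, and without replicate 3 its difference was -0.19. In uninduced shEIF2B4 cells, on the same terms as above, IGFBP7 differed from shCTRL by -0.41 in total RNA and -0.66 in RPFs, ESM1 by -0.45 and PSG1 by -0.65 in total RNA, beside -0.37, -0.82, -0.36 and -0.58 in shEIF2B1. MT1X (-0.17), MT2A (-0.19) and S100A2 (-0.12) differed by less in that line. PSG1 and the metallothioneins belong to families of near-identical copies, so reads may be shared with other members and their values are uncertain.

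The 5 genes with the smallest p on the lower side, none of which passed the test, were S1PR3, SAMD12, LDLRAD1, PRSS23 and ZNF485. S1PR3, a receptor for sphingosine 1-phosphate, measured 8.54, 8.68, 9.58 and 8.76 in shCTRL -DOX and 8.13, 7.87, 8.90 and 8.22 in shEIF2B1 -DOX. It was lower within each week, although replicate 3 was the highest of both lines and the groups overlapped, and the difference was -0.61 (limma adjusted p = 0.36, 0.00119 in the 8 libraries). ZNF485, a zinc finger gene, measured 11.78, 11.76, 12.95 and 11.83 in shCTRL and 11.49, 11.31, 12.21 and 11.38 in shEIF2B1, a difference of -0.48. SAMD12 and LDLRAD1 differed by -0.41 and -0.47. In induced cells these 4 genes other than PRSS23 lay on the other side of shCTRL, with differences of 0.51 for S1PR3, 0.47 for ZNF485, 0.27 for SAMD12 and 0.45 for LDLRAD1. PRSS23, a secreted serine protease, differed by -0.27 without DOX and by -0.31 with it (limma adjusted p = 0.0068). Median-centred values of uninduced shEIF2B4 cells against shCTRL were -0.43 for S1PR3, -0.34 for ZNF485, -0.32 for LDLRAD1, -0.21 for PRSS23 and -0.05 for SAMD12.

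The widest total RNA differences of all were in SMIM11A (1.29, limma adjusted p = 0.996) and SMIM11B (-1.56, limma adjusted p = 0.996), 2 near-identical genes between which the counting could move reads. They were chosen after their values were seen and are given as uncertain.

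With the replicate block, far more genes were called in RPFs than in total RNA. The test called 2819 genes higher and 2295 lower in shEIF2B1 -DOX, together 5114 of 11145 (45.9%), and in log2 TE 2057 higher (19%) and 1493 lower (13.8%) of 10836 (32.8%). These calls rest on comparing libraries within a week. Without the replicate block the RPF fit called 0 genes, with 1392 (12.5%) at an unadjusted p under 0.05, and the TE fit called 0, with 806 at an unadjusted p under 0.05. The groups did not overlap in 220 genes on the higher side (1.97%) and 205 on the lower side (1.84%), close to the 1.62% and 1.74% of total RNA. Genes share their libraries, so the calls are not independent of each other. With each library set to the same median, the split of the RPF calls turned from 2819 higher and 2295 lower to 2234 higher and 3127 lower. The total RNA of the called genes moved little, by a median of 0.04 for those with more RPFs and -0.05 for those with fewer.

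The gene with the widest rise in RPFs was POLR2K, a small subunit shared by the nuclear RNA polymerases. POLR2K measured 4.81, 5.48, 4.98 and 6.08 in shCTRL -DOX and 5.38, 8.16, 5.16 and 8.10 in shEIF2B1 -DOX, and the difference of 1.36 (SE 0.282, limma adjusted p = 0.00177) came mostly from replicates 2 and 4. SSB, the La protein that binds the ends of RNA polymerase III transcripts, measured 8.17, 9.45, 8.60 and 9.76 in shCTRL and 9.32, 11.03, 9.28 and 10.86 in shEIF2B1. It was higher in shEIF2B1 in every week, by 1.13 (SE 0.178, limma adjusted p = 0.00045), while weeks differed among themselves by more than that and the groups overlapped. SUMO2, a ubiquitin-like modifier, measured 6.71, 7.72, 6.81 and 7.47 in shCTRL and 7.48, 8.75, 7.31 and 9.21 in shEIF2B1, a difference of 1.01 (SE 0.17, limma adjusted p = 0.000593). HSPH1, a chaperone of the heat shock family, measured 7.78, 9.17, 8.68 and 9.94 in shCTRL and 9.13, 10.47, 9.33 and 10.58 in shEIF2B1, a difference of 0.99 (SE 0.192, limma adjusted p = 0.00122). Of the same size were SNRPE (1.03) and LSM5 (0.98), which form the rings around spliceosomal RNAs, CETN3 (1.01), a centrin, PFDN1 (1.00), a prefoldin subunit, LDHC (1.04), a lactate dehydrogenase of the germ line, and CHURC1-FNTB (1.05), a read-through gene that shares its sequence with its neighbours.

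The widest falls in RPFs included ATP6V0C (-0.86), a subunit of the vacuolar proton pump, FIBCD1 (-0.83), an acetyl-binding receptor, NGFR (-0.80), the low-affinity neurotrophin receptor, TNFSF9 (-0.79), the ligand of CD137, and MSLN (-0.72), mesothelin. CLEC11A, a secreted growth factor of the C-type lectin family, measured 8.75, 8.00, 8.55 and 7.85 in shCTRL -DOX and 7.57, 7.28, 7.79 and 7.32 in shEIF2B1 -DOX. These groups did not overlap, and the difference was -0.79 (SE 0.111, limma adjusted p = 0.000352), of which -0.59 was in log2 TE and -0.20 in total RNA. CAVIN3, a caveolar coat protein, measured 10.20, 9.42, 9.82 and 9.11 in shCTRL and 9.42, 8.59, 9.04 and 8.59 in shEIF2B1, a difference of -0.73 (SE 0.102, limma adjusted p = 0.000352) with overlapping groups. MT1B (-0.75), a metallothionein with near-identical copies, and MMP24OS (-0.72) complete the 10 widest falls, with IGFBP7. Median-centred RPFs of uninduced shEIF2B4 cells, against the same shCTRL libraries, stood at 1.181 for POLR2K (1.30 in shEIF2B1), 0.47 for SSB (1.07), 0.73 for SUMO2 (0.95), 0.42 for HSPH1 (0.92), -0.79 for CLEC11A (-0.85) and -0.57 for CAVIN3 (-0.79). Of the other rises, PFDN1 stood at 1.09 (0.94), CHURC1-FNTB at 0.99 (0.99) and LSM5 at 0.98 (0.92). SNRPE stood at 0.93 (0.97), LDHC at 0.90 (0.98) and CETN3 at 0.75 (0.95). Of the other falls, NGFR stood at -0.76 (-0.86), MT1B at -0.71 (-0.81), TNFSF9 at -0.67 (-0.85) and ATP6V0C at -0.62 (-0.92). MSLN stood at -0.60 (-0.78), FIBCD1 at -0.54 (-0.89) and MMP24OS at -0.41 (-0.78).

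In log2 TE the widest rises beside POLR2K (1.33, and 0.88 without replicate 2), SUMO2 (1.08), SSB (1.07) and SNRPE (1.04) were TMSB4X (1.13), an actin-sequestering peptide, MFAP1 (1.09), a splicing factor, and SEC61G (0.99), a subunit of the translocon. The widest falls were CX3CL1 (-0.66), a membrane-bound chemokine, CHCHD10 (-0.66), a mitochondrial protein, PKD1 (-0.62), polycystin, TNFSF9 (-0.62), MSLN (-0.62), FIBCD1 (-0.61), SLC2A6 (-0.60), a hexose transporter, NAT16 (-0.60) and MFSD3 (-0.60). In uninduced shEIF2B4 cells, median-centred log2 TE stood at 1.29 for POLR2K (1.27 in shEIF2B1), 0.92 for SNRPE (0.99) and 0.73 for SUMO2 (1.02). TMSB4X stood at 0.73 (1.08), SSB at 0.61 (1.02), SEC61G at 0.61 (0.94) and MFAP1 at 0.26 (1.04). Among the falls MFSD3 stood at -0.69 (-0.65), CX3CL1 at -0.60 (-0.71), SLC2A6 at -0.53 (-0.65) and TNFSF9 at -0.53 (-0.67). FIBCD1 stood at -0.48 (-0.66), MSLN at -0.45 (-0.67), CHCHD10 at -0.39 (-0.71), NAT16 at -0.36 (-0.65) and PKD1 at -0.28 (-0.67).

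RPF differences followed the base composition of the CDS. Genes were divided into 5 groups of about equal number by CDS GC content, with edges at 43.9%, 49.5%, 55.7% and 61.1%. In the quintile with the lowest GC content 1692 genes were called higher and 4 lower, and in the quintile with the highest 1 was called higher and 1231 lower. The median difference ran from 0.39 through 0.19, -0.01 and -0.17 to -0.27 across the 5 groups. Each week gave the same order, with medians of 0.31, 0.57, 0.31 and 0.38 in the lowest quintile and -0.28, -0.33, -0.28 and -0.23 in the highest. Total RNA medians ran only from 0.03 to -0.03, and replicate 4 ran the other way. Genes called higher had a median CDS GC content of 42.8% and genes called lower one of 61.7%.

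Across 10770 genes, which share their libraries and are not independent replicates, the RPF difference had a Pearson r of -0.81 with CDS GC content, and in single weeks, over 10847 genes, the coefficient was -0.63, -0.75, -0.72 and -0.70. By codon position r was -0.60, -0.50 and -0.80 for positions 1, 2 and 3. The sequences shown above differ in the same way at position 3 of their codons. Each stretch was chosen to match its whole CDS there, so they illustrate the pattern and do not test it. All 30 sense codons that end in A or T were more frequent in genes with higher RPFs in shEIF2B1 -DOX, in each of the 4 weeks, and 28 of the 31 that end in G or C were less frequent in each week. The coefficients were 0.71 for GAA and AAA, 0.65 for AAT and 0.62 for GAT, against -0.66 for CTG, -0.64 for GCC and -0.57 for CCC. TTG (0.38) and AAG (0.02) were among the 3 that departed from this pattern. GC content of the fragment itself and GC content of the codons cannot be told apart in these values. With the log2 of CDS length r was between -0.00 and 0.19 in single weeks.

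**Figure D2:**
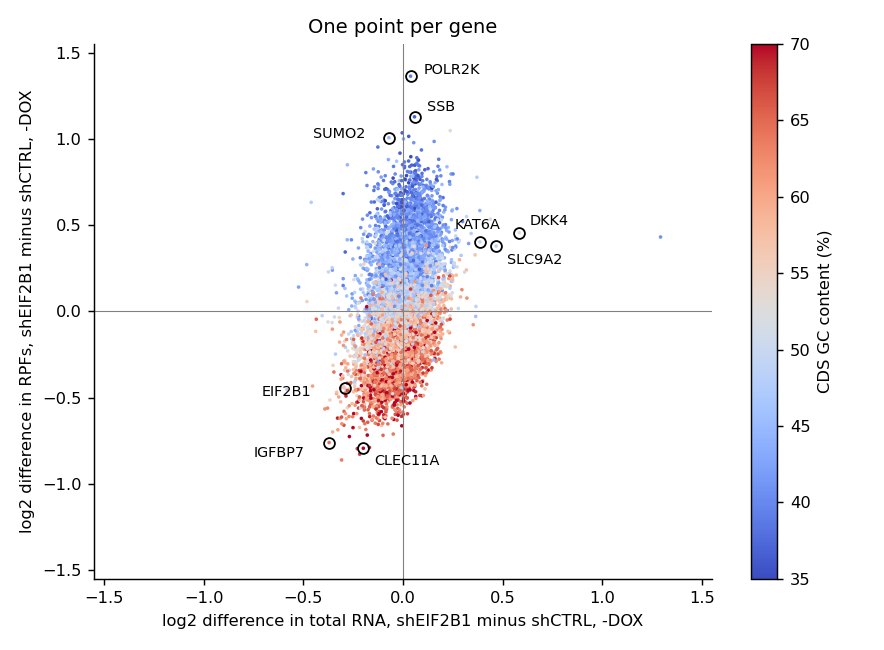
Difference between the uninduced lines in RPFs (y axis, log2) against total RNA (x axis, log2) for 10547 genes, coloured by CDS GC content. The cloud is narrow in total RNA and tall in RPFs, with low-GC genes such as SSB (1.13) at the top, high-GC genes such as CLEC11A (-0.79) at the bottom, and EIF2B1 at -0.29 and -0.45.

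A GC index was computed per library as the median, over genes of the highest GC quintile, of the deviation from each gene's mean over the 16 RPF libraries of shCTRL and shEIF2B1, minus the same for the lowest quintile. In RPFs of weeks 1 to 4 it was 0.73, -0.05, 0.65 and -0.27 in shCTRL -DOX and 0.15, -0.92, 0.06 and -0.86 in shEIF2B1 -DOX. The uninduced shEIF2B1 library was the lowest of the shCTRL and shEIF2B1 libraries in every week. The differences within weeks were -0.58, -0.88, -0.60 and -0.59, a mean of -0.66 (SD 0.143, n = 4), with p = 0.125 in an exact permutation test within weeks, the smallest that 4 weeks allow, and p = 0.171 in one of 4 against 4 libraries. The index varied between weeks as much as between lines, and in each line it was lower in weeks 2 and 4 than in weeks 1 and 3.

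With DOX the index differed less between the lines. The index of shCTRL +DOX was 0.58, -0.04, 0.32 and -0.53 and that of shEIF2B1 +DOX 0.66, -0.27, 0.36 and -0.58, so the differences were 0.08, -0.23, 0.04 and -0.04 (mean -0.04, SD 0.138, exact permutation p = 0.75 within weeks). The change of the line difference on induction was 0.66, 0.65, 0.64 and 0.55 (mean 0.62, SD 0.0527, exact permutation p = 0.125 within weeks). In log2 TE the line differences were -0.49, -0.79, -0.47 and -0.69 without DOX and 0.10, -0.62, 0.22 and -0.07 with it, so that in week 2 shEIF2B1 was lower with DOX as well. In that week the index difference with DOX was -0.23 in RPFs and 0.35 in total RNA. In the uninduced shEIF2B4 line the RPF index differed from shCTRL by 0.15, -0.51, -1.11 and -0.57, which was lower in 3 of 4 weeks. In log2 TE it differed there by 0.10, -0.57, -1.30 and -0.69, a mean of -0.62 beside -0.61 in uninduced shEIF2B1. In total RNA the index differed between the uninduced shEIF2B1 and shCTRL lines by -0.09, -0.09, -0.11 and 0.09. Whether the RPF libraries or the cells carried the difference was not tested, since each lysate gave 1 RPF library.

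The sign of the RPF calls was also compared in induced cells. Of the 2819 that were higher, 1536 (54.5%) were higher in shEIF2B1 +DOX on average and 413 (14.7%) in each of the 4 weeks, beside 53.6% and 14.7% of all genes that were higher. Of the 2295 that were lower, 60.0% and 19.5% were lower, beside 55.5% and 16.0%. The uninduced differences are means over uninduced libraries alone, while the spread behind the calls was estimated from both. SSB, 1.13 higher without DOX, stood at -0.17 with it, HSPH1 at -0.37, SUMO2 at 0.01 and CAVIN3 at 0.03. For each of these 4 genes the change in the line difference passed the test, with limma adjusted p between 0.00229 and 0.00885. They were named for wide uninduced differences, which enter that change. Their choice alone therefore favoured a pass, and the share of all genes that passed is not given.

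When each library's trend with CDS GC content was removed before the fit, an alternative chosen after seeing the data, 138 genes were called higher (1.27%) and 165 lower (1.52%) in RPFs (together 2.79% of 10847) and 58 in log2 TE (0.55%). EIF2B1 stayed among them at -0.56 (limma adjusted p = 0.0145), as did IGFBP7 at -0.49 (limma adjusted p = 0.0382), CLEC11A at -0.48 (limma adjusted p = 0.0362) and CAVIN3 at -0.40 (limma adjusted p = 0.0445). On the higher side TSPAN13, a tetraspanin, was 0.63 higher (limma adjusted p = 0.0253) with groups that did not overlap in the deposited values, DNAAF2, a dynein assembly factor, 0.67 (limma adjusted p = 0.0191), WT1, a zinc finger transcription factor, 0.61, and KRT78, a keratin, 0.78. On the lower side were ZNF720 (-0.90), C15orf61 (-0.89), ZNF674 (-0.67) and SMIM30 (-0.60). In the values as deposited these 4 genes differed by less, -0.23 for ZNF720 (limma adjusted p = 0.22, not called), -0.36 for C15orf61, -0.29 for ZNF674 and -0.45 for SMIM30. TSPAN13 and the 7 genes after it were named after their values were seen. In log2 TE TMSB4X remained 0.89 higher (limma adjusted p = 0.0126).

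Members of 17 gene lists were read against this background, and no member of any list was called in total RNA. The counts below are for RPFs, where 25.3% of all genes were called higher and 20.6% lower and the median over all genes was 0.00, and the members named are among the widest differences on either side. After removal of the GC trend 0 or 1 member of each list was called, apart from the ribosomal protein and oxidative phosphorylation genes, for which the counts are given.

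Translation and the stress response come first. Among 9 genes for eIF2 and its regulators, 4 rose and 0 fell, with a median of 0.22 that became 0.02 without the GC trend. The members that rose were all 3 subunits of eIF2, EIF2S1 (0.56), EIF2S2 (0.52) and EIF2S3 (0.40), and the double-stranded RNA kinase EIF2AK2 (0.63). Of 42 ATF4 and ISR target genes 8 rose and 7 fell (median 0.03, 0.05 without the GC trend). ATF4 itself differed by -0.12 (limma adjusted p = 0.4), DDIT3, which encodes CHOP, by -0.07 (limma adjusted p = 0.666) and PPP1R15A, which encodes the eIF2α phosphatase subunit GADD34, by -0.18 (limma adjusted p = 0.145). ATF3, another stress-induced transcription factor, differed by 0.25 (limma adjusted p = 0.122). The pseudokinase gene TRIB3 was 0.31 lower (difference -0.31, SE 0.0943, limma adjusted p = 0.0166) and -0.04 without the GC trend, and the asparagine synthetase gene ASNS was 0.38 higher (SE 0.152, limma adjusted p = 0.056) and 0.05 without it. In total RNA the 6 genes differed by -0.12 to 0.26. CEBPG (0.53), a partner of ATF4, and EPRS1 (0.47), a tRNA synthetase, were higher, and GDF15 (-0.44), a stress cytokine, and SLC7A5 (-0.33), a leucine transporter, were lower. GDF15 was lower in 3 of 4 weeks and lost its call without replicate 1 (-0.25) or 4 (-0.41), TRIB3 lost it without replicate 1 (-0.19), and ASNS without replicate 2 (0.31), 3 (0.31) or 4 (0.34).

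Genes that act on an shRNA or sense double-stranded RNA were included because the cassette encodes a hairpin. Of 13 small RNA pathway genes 3 rose and 1 fell (median 0.13, 0.03 in total RNA): AGO3 (0.40), an Argonaute, DROSHA (0.28), the nuclear processing enzyme, and PRKRA (0.32), a Dicer partner, were higher, and TARBP2 (-0.25), another Dicer partner, was lower. The median was 0.03 without the GC trend. DROSHA lost its call without replicate 2, 3 or 4 (each 0.24), PRKRA without replicate 2 (0.23) and TARBP2 without replicate 2 (-0.23), 3 (-0.23) or 4 (-0.26). Of 35 interferon and double-stranded RNA response genes 5 rose and 12 fell, with a median of -0.10 (-0.09 without the GC trend). IFI27 (-0.54), IFI6 (-0.54) and IFITM2 (-0.52), all interferon-induced membrane proteins, were lower, while IFIH1 (0.47), the RNA sensor MDA5, was higher. The median of this list in total RNA was -0.02.

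Markers of cell identity moved in both directions. Of 11 colon epithelial markers 1 rose and 4 fell (median -0.12, 0.02 without the GC trend, 0.07 in total RNA). EPCAM, the epithelial adhesion molecule, was 0.60 higher (limma adjusted p = 0.000352), 0.69 higher with DOX and 0.30 higher without the GC trend. CEACAM6 (-0.49), an adhesion molecule with close paralogs, the tight junction genes CLDN3 (-0.46) and CLDN4 (-0.40) and the intestinal transcription factor CDX2 (-0.34) were lower. The RPF values of CEACAM6 were low, at 3.25 to 4.65 in these uninduced libraries, whose medians were 6.98 to 7.12. Of 9 mesenchymal markers 2 rose and 2 fell. ZEB1 (0.39), a repressor of epithelial genes, was higher, and L1CAM (-0.49), a neural adhesion molecule, and TGFBI (-0.34), a matrix protein, were lower. CEACAM6 lost its call without replicate 3 (-0.39) and ZEB1 without replicate 3 (0.36) or 4 (0.34), and without the GC trend ZEB1 was at 0.09. EPCAM stood 0.87 above shCTRL in median-centred RPFs of uninduced shEIF2B4 cells, beside 0.54 in shEIF2B1, and CEACAM6 at -0.81, beside -0.55. CD68, the measured marker of other cell types, was -0.41 in RPFs and -0.06 in total RNA. Of 18 WNT target and stem cell genes 0 rose and 8 fell (median -0.21, -0.02 without the GC trend): among them were NOTUM (-0.45), a WNT deacylase, SP5 (-0.41) and ASCL2 (-0.34), both transcription factors. Without the GC trend NOTUM was at -0.16, SP5 at -0.07 and ASCL2, whose sign turned, at 0.02. After removal of the GC trend the 1 called member of this list was AXIN2, a feedback inhibitor of WNT signalling, at 0.25 on the higher side.

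Growth and metabolic lists also split. Of 33 proliferation genes 18 rose and 3 fell (median 0.29, 0.12 without the GC trend, 0.04 in total RNA). The mitotic motor genes CENPE (0.88) and KIF11 (0.76) and the topoisomerase gene TOP2A (0.64) were highest, and CDT1 (-0.39), a replication licensing factor, BIRC5 (-0.39), survivin, and FOXM1 (-0.27), a cell cycle transcription factor, were lower. Of 24 cholesterol synthesis genes 9 rose and 8 fell (median -0.13, -0.01 without the GC trend): IDI1 (0.61) and HMGCS1 (0.52), early enzymes of the pathway, were higher and EBP (-0.43) and TM7SF2 (-0.41), late enzymes, were lower. Of 19 NF-κB and immediate early genes 0 rose and 8 fell (median -0.27, -0.07 without the GC trend), such as IER3 (-0.55), ICAM1 (-0.49) and JUN (-0.35), of which JUN lost its call without replicate 1 (-0.21) or 2 (-0.32). Of 6 metallothioneins 0 rose and 4 fell (median -0.39 in RPFs, -0.19 without the GC trend, and -0.29 over the 5 measured in total RNA): MT1F (-0.59), MT2A (-0.56), MT1X (-0.43) and MT1E (-0.28). MT1E lost its call without replicate 2 (-0.21), 3 (-0.20) or 4 (-0.35). Of these 4 lists, only the metallothioneins also had a total RNA median beyond 0.05 in size.

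Families of short, highly covered mRNAs had members at both ends. Of 82 cytosolic ribosomal protein genes 20 rose and 5 fell (median 0.05, 0.01 without the GC trend), from RPL38 (0.87), RPS24 (0.78) and RPS23 (0.71) to RPL15 (-0.43) and RPL10L (-0.47), the last a copy of another ribosomal protein gene and so uncertain. After removal of the GC trend RPL38, RPS24 and RPS23 were still higher and RPL10L still lower. Of 80 oxidative phosphorylation genes 21 rose and 22 fell (median -0.01, -0.04 without the GC trend), from ATP5F1E (0.76), an ATP synthase subunit, and COX7B (0.72), a cytochrome c oxidase subunit whose groups did not overlap, to UQCRH (-0.44), of complex III, and COX8A (-0.64), of complex IV, and after removal of the GC trend 4 were called higher and 4 lower. Of 54 clustered histone genes 0 rose and 22 fell (median -0.17, 0.03 without the GC trend and 0.03 in total RNA). H2AC11 (-0.59) and H2AC17 (-0.50) were the lowest, and histone genes share near-identical sequences.

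Median differences of single chromosomes were small in total RNA. Over 23 chromosomes the median line difference lay between -0.02 and 0.02, with 3 of the same sign in all 4 weeks, 0 without overlap and a smallest exact permutation p of 0.0571 (adjusted over chromosomes 0.657). In RPFs the medians ran from -0.17 on chromosome 22 to 0.24 on chromosome 13, with 20 of 23 of the same sign in all weeks. One chromosome, 21, did not overlap between the groups (0.04), and the smallest exact permutation p, 0.0286, was 0.282 after adjustment. That is the smallest p the test allows, so a single chromosome could not pass after adjustment in either measure. The adjusted values therefore do not decide whether a chromosome differed. Across chromosomes the RPF median had a Pearson r of -0.97 with the median CDS GC content of their genes, given as a description over 23 points that share the same libraries. Chromosome 12, which carries EIF2B1, had a median of 0.01 in RPFs and -0.00 in total RNA.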

How the data were processed

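RPF and total RNA libraries of SW480 shCTRL and shEIF2B1 cells were compared. According to the study's methods and the processing notes in the labels, the authors removed adaptors (cutadapt 1.18), deduplicated total RNA reads, aligned them with Bowtie2 to a filtered GENCODE v38 protein-coding transcriptome, used RSEM for quantification and took the top transcript of each gene. RPF reads of 28 to 33 nt, cleared of rRNA, tRNA and mitochondrial RNA, were counted on the CDS. SAMtools 1.9 is also named. The deposited values are regularized log2 values that the authors made with DESeq2 under R 4.3.1. They hold no counts, so depth is unknown and no count test was possible. All columns were mapped to samples, and 0 were left unused.

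limma 3.58.1 under R 4.3.3 was fitted to the values (lmFit, eBayes with a mean-variance trend): replicate block, shRNA, DOX and their product over 16 libraries (9 residual degrees of freedom). The contrast was shEIF2B1 -DOX minus shCTRL -DOX, two-sided, Benjamini-Hochberg over all genes, called at an adjusted p under 0.1. Log2 TE was obtained per lysate by subtracting the total RNA value from the RPF value. The block follows the study's design and its separate weeks. After group means were removed, uninduced libraries of the same number correlated at 0.46, 0.22, 0.50 and 0.35 in total RNA and 0.74, 0.68, 0.71 and 0.81 in RPFs. The fit was tested on simulated data. CDS composition came from GENCODE v29 on GRCh38, matched for 97.1% of total RNA and 97.3% of RPF genes. The GC trend was a loess fit (span 0.3) per library. Python 3.11.15 with numpy 2.4.6, scipy 1.17.1, pandas 2.3.3 and matplotlib 3.10.9 was used for the rest.

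The comparison, the lists, the tests and the genes singled out were chosen with earlier results of these data known. Named genes were the eIF2B subunits, 6 ISR genes, list members past the threshold (of which examples with wide differences are given), and per measure the 10 widest rises and falls called in the same direction in all 4 weeks, or the 5 smallest p where no gene was called. A gene on the Y chromosome and a few other items are not reported here. Exceptions are marked in the text.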

Additional observations from a re-analysis of the deposited data

Results flagged for a closer look

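The line difference changed with DOX by more than the test's threshold for several genes described above. The change in the line difference (shEIF2B1 minus shCTRL, +DOX minus -DOX) was -0.67 for EIF2B1 in total RNA (limma adjusted p = 0.0263) and -0.53 in RPFs (limma adjusted p = 0.0109), both in the direction of the shRNA. Some stress genes also passed in RPFs, at 2.00 for TRIB3 (limma adjusted p = 1.97e-08), 1.56 for GDF15 (limma adjusted p = 0.000406) and 1.49 for DDIT3 (limma adjusted p = 6.14e-06). So did PPP1R15A at 1.08 (limma adjusted p = 2.99e-05) and ATF4 at 1.02 (limma adjusted p = 0.000223). Other stress genes named above did not pass: ATF3 (-0.10, limma adjusted p = 0.726) and EPRS1 (-0.16, limma adjusted p = 0.521). Nor did CEBPG (0.18, limma adjusted p = 0.539) and SLC7A5 (0.14, limma adjusted p = 0.448). Further genes passed that are not listed here. In total RNA the change was 1.12 for S1PR3 (limma adjusted p = 0.00196), 0.95 for ZNF485 (limma adjusted p = 0.00422), 0.91 for LDLRAD1 (limma adjusted p = 0.0021) and 0.67 for SAMD12 (limma adjusted p = 0.00813), from lower without DOX to higher with it. In RPFs it was -1.30 for SSB (limma adjusted p = 0.00246), -1.35 for HSPH1 (limma adjusted p = 0.00321), -0.99 for SUMO2 (limma adjusted p = 0.00885), -0.39 for KAT6A (limma adjusted p = 0.1, rounded up from just under the threshold) and 0.75 for CAVIN3 (limma adjusted p = 0.00229). The genes from S1PR3 to CAVIN3 were named for their uninduced differences, which enter the change. Their choice alone favoured a pass, and the share of all genes that passed is not given.

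Single libraries lay far from the other 3 of their group for 10 values. In total RNA these were, in shCTRL -DOX replicate 3, ABCB1 at 5.63, MT1X at 9.79, ZNF485 at 12.95 and S100A2 at 9.07, and in shEIF2B1 -DOX replicate 3, LDLRAD1 at 7.11, PSG1 at 7.74 and ATF4 at 12.25. In RPFs they were ATF4 at 8.80 in shCTRL -DOX replicate 4, and MT1E at 10.75 and TSPAN13 at 7.47 in shEIF2B1 -DOX replicate 2. Chance marks about 1 in 20 groups of 4. Many groups were examined and their number is not given, so 10 values are not shown to exceed chance. All 7 in total RNA were replicate 3, which was joined from 2 sequencing runs, and the part of that in these values was not tested.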

How the results depend on the processing

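Counts of called genes moved with the setting. In total RNA, 1 gene was called, against 167 in only the 8 uninduced libraries, 4 in all 24 libraries, 0 without the replicate block (361 at an unadjusted p under 0.05), 0 at an adjusted p under 0.05, and 0 to 1 with a replicate left out (0 without replicate 2, 3 or 4). RPF calls, 5114, went to 0 without the block, 303 with the CDS GC trend removed and 634 with the trend at codon position 3 removed, and lay between 3593 and 4416 with a replicate left out. Log2 TE calls, 3550, went to 0 without the block, 58 and 150 with the trends removed, and 1380 to 2772 with a replicate left out (1380 without replicate 4). Both trend removals were chosen after seeing the data. The reported calls used the block, since same-numbered libraries come from the same week. EIF2B1 kept its sign in every setting: in total RNA it passed in the 8 uninduced libraries (-0.29, limma adjusted p = 0.0289), and in RPFs it was no longer called without the block (-0.45, limma adjusted p = 0.354), while with a replicate left out it lay between -0.48 and -0.41. Chromosomes without overlap numbered 2 in total RNA with any replicate left out, and 1 to 3 in RPFs and 0 to 3 in log2 TE. With libraries set to the same median there were 0 in RPFs and in log2 TE, and with means over genes 0 in RPFs, against 0, 1 and 1 in the report's 3 measures. With fewer libraries per group, absence of overlap is more frequent by chance. Signs of small differences turned: EIF2B4 in RPFs was -0.019 with the position 3 trend removed and between -0.0297 and 0.164 with a replicate left out. With a replicate left out, ATF4 in total RNA lay between -0.0075 and 0.061, DDIT3 between -0.047 and 0.0061 in total RNA and between -0.189 and 0.036 in RPFs, and PPP1R15A in total RNA between -0.092 and 0.0078. In RPFs with the GC trend removed PPP1R15A was 0.016 and ASCL2 0.016, and with the position 3 trend removed ZEB1 was -0.0029. Of the other values of named genes, 110 lost their call without the block and 68 with the GC trend removed. Except where the alternative itself has fewer libraries, the cause was not tested.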
